A study of Mus musculus with 6 samples.

Results

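The 34 genes described here encode lysosomal enzymes, their cofactors and lysosomal membrane proteins, followed across the cell classes of mouse pancreatic tumours. They came from a list of symbols matched in the feature tables of all 6 libraries, where all 34 were found among 32285 features. They were grouped by role as 8 genes of lipid breakdown, 13 of sugar breakdown, 3 that act on proteins, 8 of the membrane and 2 other soluble proteins. Each of the 6 KPC mice gave 1 droplet single-cell library (10x Genomics). All mice carried KrasLSL.G12D/+, p53LSL.R172H/+ and Pdx1-Cretg/+, so that both mutant alleles were switched on by a Cre driven from the Pdx1 promoter, which is active in the pancreatic epithelium. The 3 vehicle mice received corn oil and water, and the 3 treated mice received trametinib at 1 mg/kg with hydroxychloroquine at 40 mg/kg, both by mouth. Mice entered the study with a tumour of 4 to 7 mm on ultrasound, and tumours were dissociated 24 h after treatment. No group received either drug alone, so their separate contributions cannot be told apart, and the animals' ages are not given in the sources used here.

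Lysosomes are acidic compartments in which hydrolases break down lipids, glycans and proteins delivered by endocytosis, phagocytosis and autophagy. Most of these enzymes work best at low pH, and membrane proteins carry their products out or hold the compartment together. Hydroxychloroquine is a weak base that collects in lysosomes and raises their pH, and trametinib inhibits MEK, the kinase above ERK. The transcription factors TFEB and TFE3, which bind the CLEAR element around an E-box, are known to raise transcription of many lysosomal genes.

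Promoter sequence is shown for 7 members to let the E-box letters be seen beside the values. They were picked after values and matches had been seen: Lipa and Psap for their differences in macrophages, Naglu as a member that differed there and holds the letters, and the others for the number or length of their matches. Each stretch is 100 bases from RefSeq on GRCm38.p6, written 5′ to 3′ on the gene's strand and lying before the RefSeq start used. By the gene spans of GENCODE, another annotation, the Cln3 stretch lies inside the gene. Those of Naglu, Mcoln1 and, at its last base, Psap reach into theirs. Where a gene had several starts in the table, the one with the most matches was taken. Capitals mark the letters CACGTG, or the longer TCACGTGA with, in Cln3, a G before and a C after it.
Lipa, chr19:34527475-34527574, minus strand: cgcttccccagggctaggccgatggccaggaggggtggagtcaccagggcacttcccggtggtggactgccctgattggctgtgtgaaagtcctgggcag
Psap, chr10:60277528-60277627, plus strand: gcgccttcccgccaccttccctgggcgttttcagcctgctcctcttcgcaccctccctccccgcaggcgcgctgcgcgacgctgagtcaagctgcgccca
Naglu, chr11:101069991-101070090, plus strand: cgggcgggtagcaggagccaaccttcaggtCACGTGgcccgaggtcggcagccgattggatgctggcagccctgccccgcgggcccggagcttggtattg
Lamp1, chr8:13159061-13159160, plus strand: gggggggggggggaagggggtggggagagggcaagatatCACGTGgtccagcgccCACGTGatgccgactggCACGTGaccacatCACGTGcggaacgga
Cln3, chr7:126583316-126583415, minus strand: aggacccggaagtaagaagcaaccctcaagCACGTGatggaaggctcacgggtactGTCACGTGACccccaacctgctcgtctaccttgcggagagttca
Mcoln1, chr8:3500418-3500517, plus strand: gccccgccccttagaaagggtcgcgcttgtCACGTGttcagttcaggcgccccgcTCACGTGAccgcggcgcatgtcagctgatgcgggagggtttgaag
Gla, chrX:134601156-134601255, minus strand: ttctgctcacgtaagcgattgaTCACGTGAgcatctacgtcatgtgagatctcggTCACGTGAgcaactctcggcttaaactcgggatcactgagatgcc

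A promoter entry was matched for 31 members, and Galns, Asah1 and Npc1 had none. From 250 bases before to 50 after the start, CACGTG, which reads the same on both strands, was found in 9 of 31 members (29.0%), in 16 of 62 other lysosome genes (25.8%) and in 8.09% of the 27025 genes of the table. The 9 members were Cln3, Gaa, Gla, Glb1, Lamp1, Lgmn, Mcoln1, Naglu and Sgsh. The longer TCACGTGA, which contains CACGTG, was found in 3 members (Gla, Mcoln1 and Cln3) and in 1.12% of all genes. The match with a G before and a C after it was found in Cln3 alone among the members and in 0.37% of all genes. These matches describe letters in a window and are not evidence of binding.

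Libraries held 2384 to 12207 barcodes, and 37018 cells were kept. Kept cells had a median UMI count from 2991 to 4719 across vehicle mice and from 8449 to 11175.5 across treated mice, and the share of barcodes over 20% mitochondrial UMIs was 3.86% to 8.19% and 7.76% to 19.8%. Clusters were named from fixed markers, and 7 classes had at least 20 cells in every mouse: macrophages and monocytes (9429 cells), tumour and ductal epithelium (9341), neutrophils (5468), fibroblasts (3265), B cells (1443), endothelium (1227) and T and NK cells (1140). A further 11.7% of cells stayed unnamed, from 1.19% in vehicle 3 to 39.7% in treated 2. Any 2 libraries shared at most 24 cell barcodes. Haemoglobin and other red-cell transcripts were highest in vehicle 1 and treated 3 in the macrophage sums (399 and 198 CPM, against 0 to 12.5 CPM in the other mice). Treated 1 and treated 2 lay close to each other in many sums, and they were also summed as 1 sample, with which no member passed in any class.

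Values are UMIs of a class summed per mouse and given as CPM, counts relative to the UMIs of the genes tested in that class. They were scaled with edgeR's TMM factors so that they lie on the same scale as the fold changes. The genes tested ran from 1960 in B cells to 14421 in tumour cells, so the scale differs between classes. Levels of a gene were compared across classes but not between genes. Since the cells were clustered, these levels are descriptive and carry no test, although the members were left out of the genes used for clustering.

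Macrophages and monocytes held the highest mean level of 23 of the 34 members, fibroblasts of 7, neutrophils of 3 and endothelium of 1. For 8 of the 23 macrophage genes, every mouse's macrophages lay above every mouse's cells of the next class. They were Psap, Gm2a, Gusb, Tpp1, Lgmn, Lamp1, Npc1 and Grn. Npc1 was apart by little, with a lowest macrophage value of 40.1 CPM and a highest tumour value of 36.0 CPM. In 25 of 34 members the macrophage level exceeded the tumour level in all 6 mice. These counts were not repeated on class totals, where the narrow gap of Npc1 may not hold.

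Psap, which encodes the precursor of the saposins that present sphingolipids to hydrolases, averaged 3074 ± 1370 CPM in macrophages (SD, n = 6) and 511 ± 119 CPM in fibroblasts. The other 5 classes averaged from 209 CPM in T and NK cells to 406 CPM in endothelium, and several of these ranges overlapped. Gm2a, which encodes the GM2 ganglioside activator, averaged 722 ± 273 CPM in macrophages, 240 ± 103 CPM in neutrophils and 19.1 ± 8.21 CPM in tumour cells. Tumour and endothelial cells were lowest for this gene and had similar levels.

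Gusb, which encodes beta-glucuronidase, averaged 189 ± 8.38 CPM in macrophages and 59.5 ± 8.68 CPM in fibroblasts. Lgmn, the asparaginyl endopeptidase legumain, averaged 800 ± 343 CPM in macrophages, 239 ± 32.9 CPM in endothelium and 238 ± 62.3 CPM in fibroblasts. Endothelium and fibroblasts did not differ beyond their spread. Lamp1, an abundant glycoprotein of the lysosomal membrane, averaged 1020 ± 203 CPM in macrophages, and tumour cells, fibroblasts and endothelium lay close together between 312 and 350 CPM.

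Fibroblasts led for Cd63, a tetraspanin of late endosomes and lysosomes, at 1524 ± 352 CPM against 734 ± 284 CPM in macrophages. Every fibroblast sum lay above every macrophage sum. Gaa, the acid alpha-glucosidase that breaks down glycogen, averaged 95.7 ± 33.7 CPM in fibroblasts and 38.9 ± 12.4 CPM in macrophages, with overlap. Gla, alpha-galactosidase A, was highest in neutrophils (70.2 ± 37.3 CPM), whose range overlapped that of B cells and macrophages.

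**Figure D1:**
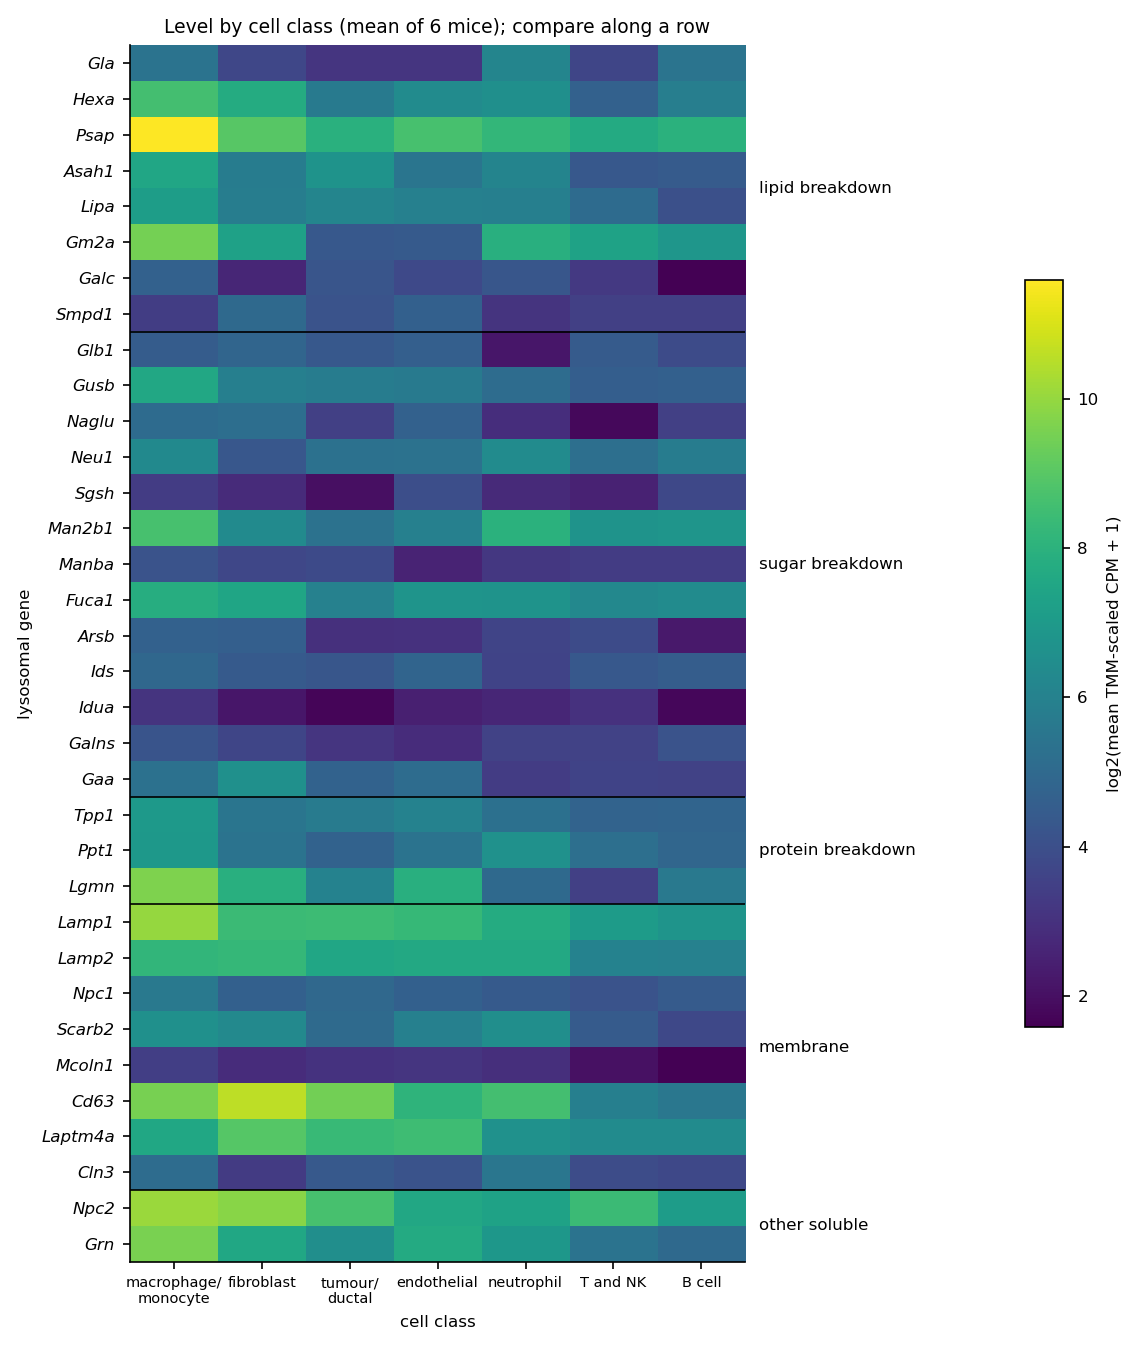
Colour shows log2(mean TMM-scaled CPM + 1) over 6 mice for each of the 34 members (rows, grouped by role) in 7 cell classes (columns). Macrophages and monocytes are the highest class in 23 rows, fibroblasts in 7 and neutrophils in 3, and rows are to be compared across classes only.

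The main comparison asked whether 24 h of trametinib with hydroxychloroquine changed these genes within a cell class. With edgeR's quasi-likelihood test adjusted over all genes of a class, none of the members measured passed 0.05 in any of the 7 classes. The number measured was 34 in macrophages, tumour cells and fibroblasts, 33 in endothelium, 31 in neutrophils, 14 in T and NK cells and 7 in B cells. The same test called 0% of all genes in macrophages, tumour cells, fibroblasts, neutrophils and B cells, 0.859% in endothelium and 0.161% in T and NK cells. DESeq2, run as an alternative, called 3 members higher in treated macrophages, where it called 91 of 11524 genes higher (1.9% in either direction). In treated fibroblasts it called 3 members higher and 170 of 12468 genes (2.95% in either direction). It called none in the other classes, although it gave most members no adjusted p in endothelium. In data simulated from the macrophage sums (11524 genes), edgeR recovered 5% of 100 genes changed 2-fold and 79% of 100 changed 4-fold. In data simulated from the tumour sums (14421 genes) it recovered 0% at either size, so a missing call there says little.

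**Figure D2:**
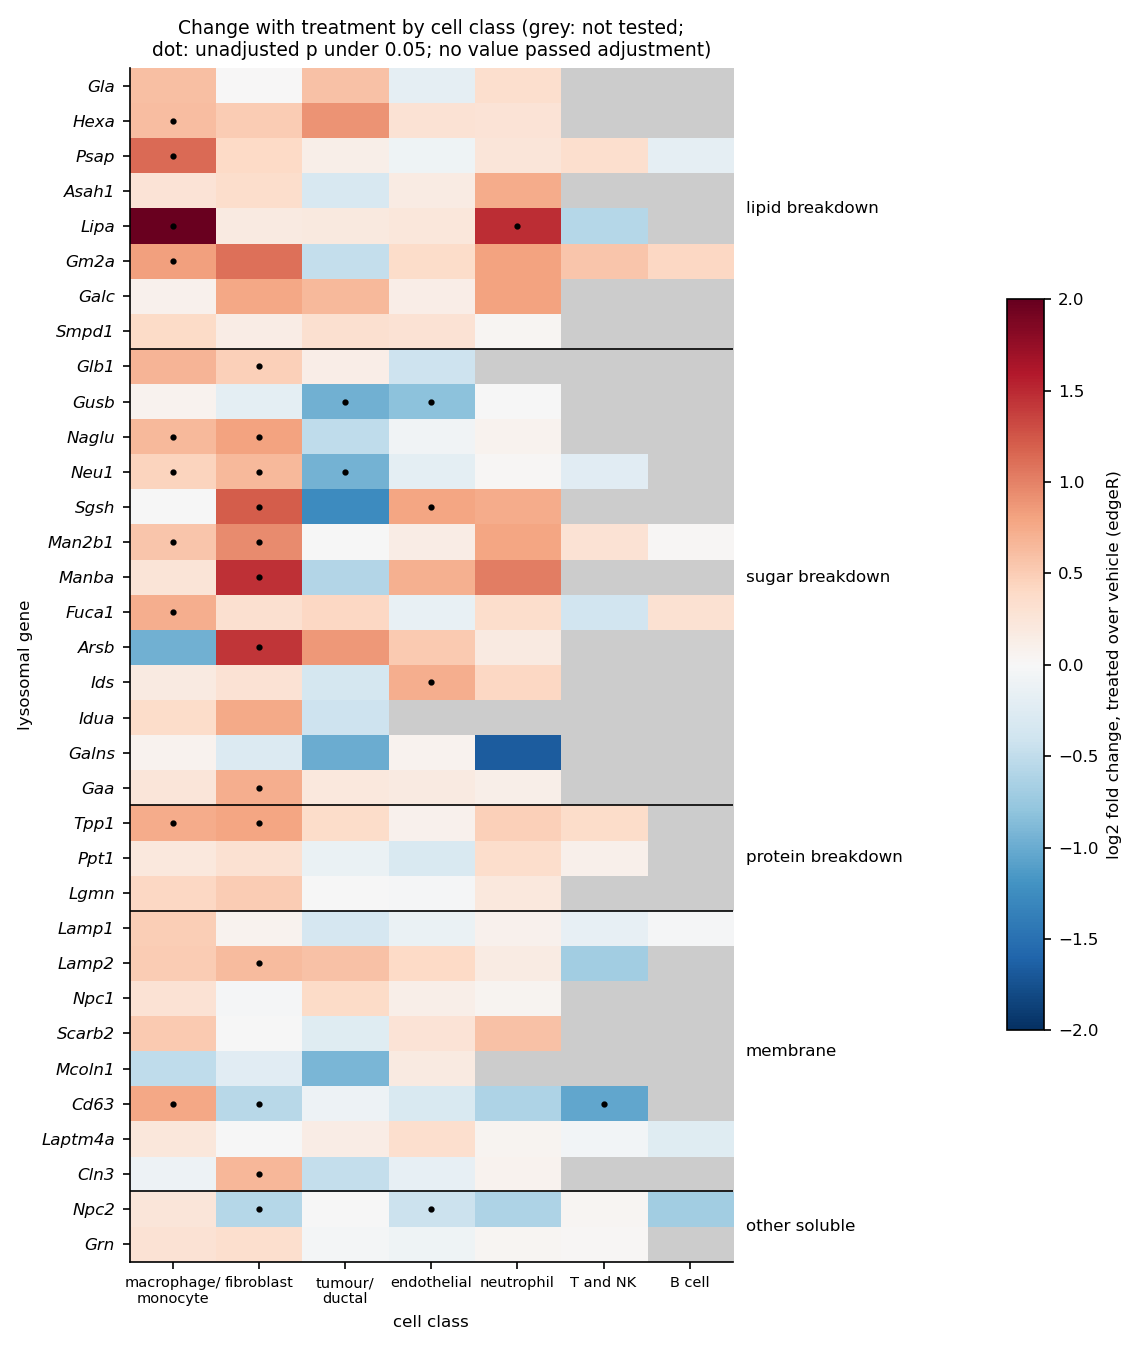
Colour shows the log2 fold change, treated over vehicle, from edgeR for each member (rows, grouped by role) in each class (columns), grey where a gene was too low to test, with the scale ending at 2 in either direction. Dots mark an unadjusted p under 0.05, of which macrophages hold 10 and fibroblasts 13, and no value passed adjustment.

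In macrophages and monocytes, 30 of 34 members had a fold change above 0 (50.6% of all genes did), and the median was 0.37 on the log2 scale against 0.01 over all genes. At an unadjusted p under 0.05, 10 members were higher and 0 lower in treated mice, where 4.43% of all genes were higher and 5.33% lower (9.76% in all). All 3 treated mice lay above all 3 vehicle mice for 15 members and below for 0, against 8.46% and 8.31% of genes. Scaled to class totals, these counts were 14 and 1, against 5.59% and 10.8% of genes. By role, the median was 0.61 for lipid breakdown, 0.26 for sugar breakdown, 0.42 for the protein group, 0.39 for the membrane and 0.26 for the other soluble proteins. With 1 mouse left out the lipid median stayed between 0.52 and 0.66. The sugar median reached 0.48 without vehicle 1 and 0.40 without treated 2. The protein median was 0.81 without vehicle 1, 0.72 without treated 3 and 0.22 without treated 2, so the order of the roles rests on single mice.

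Lipa (ENSMUSG00000024781, chr19:34492318-34527474 on GRCm38.p6) encodes the acid lipase that hydrolyses cholesteryl esters and triglycerides. Its level in macrophages was 45.8, 55.6 and 71.6 CPM in vehicle mice 1 to 3 and 305, 206 and 171 CPM in treated mice 1 to 3. All treated values lay well above all vehicle values. The log2 fold change was 1.97 ± 0.29 (SE), with an adjusted p of 0.123 by edgeR and 9.08e-07 by DESeq2. Over 17 alternatives it lay between 1.70 and 2.16, and it also passed in edgeR when genes with low counts were kept (adjusted p = 0.012), a setting that called 25 genes higher and 28 lower of 20633.

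The level of Psap was 2587, 1361 and 1809 CPM in vehicle macrophages and 4771, 4250 and 3667 CPM in treated ones. No treated value fell within the vehicle range. The log2 fold change was 1.14 ± 0.30, with an adjusted p of 0.283 by edgeR and 0.0142 by DESeq2. Gm2a was at 577, 407 and 582 CPM in vehicle mice and 751, 821 and 1193 CPM in treated mice, again without overlap. Its log2 fold change was 0.82 ± 0.28 (edgeR adjusted p = 0.393).

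The other lipid genes were Hexa, Gla, Asah1, Galc and Smpd1. Hexa, the alpha subunit of beta-hexosaminidase, was higher in each treated mouse (log2 0.62 ± 0.24, unadjusted p = 0.0349 by edgeR). Gla (0.60) and Smpd1, acid sphingomyelinase (0.38), also had groups that did not overlap, with unadjusted p above 0.1 in edgeR. Asah1, acid ceramidase (0.27), and Galc, galactosylceramidase (0.09), overlapped between groups.

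Among the 13 sugar-breaking genes, 4 reached an unadjusted p under 0.05 in macrophages. Naglu, which removes N-acetylglucosamine from heparan sulfate, was at 29.3, 24.1 and 24.4 CPM in vehicle mice and 42.2, 42.8 and 36.7 CPM in treated mice. The groups did not overlap, and the log2 fold change was 0.66 ± 0.18 (edgeR adjusted p = 0.301). Man2b1, the alpha-mannosidase of glycoprotein breakdown, was at 394, 337 and 267 CPM in vehicle mice and 435, 474 and 550 CPM in treated mice (0.55 ± 0.23). Fuca1, alpha-fucosidase, was at 175, 117 and 216 CPM in vehicle mice and 282, 242 and 317 CPM in treated mice (0.73 ± 0.27). Both were higher in every treated mouse, and neither passed adjustment (edgeR adjusted p = 0.504 and 0.447).

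The sialidase Neu1 was the fourth (0.45 ± 0.18). Gusb, at 180, 190 and 185 CPM in vehicle mice and 201, 197 and 183 CPM in treated mice, had a fold change of 0.07 ± 0.18, with overlap. Arsb, arylsulfatase B, had the lowest fold change (-0.96 ± 0.49), with 59.3 CPM in vehicle 2 and 13.4 to 25.0 CPM in the other 5 mice. The remaining 7 sugar genes had fold changes from -0.01 (Sgsh) to 0.68 (Glb1), with overlap between groups in each.

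Tpp1 encodes tripeptidyl peptidase 1, an exopeptidase. In macrophages it was at 103, 89.5 and 94.5 CPM in vehicle mice and 160, 173 and 148 CPM in treated mice, without overlap. The log2 fold change was 0.75 ± 0.19, with an adjusted p of 0.261 by edgeR and 0.0201 by DESeq2. Lgmn was at 1004, 713 and 340 CPM in vehicle mice and 994, 1249 and 499 CPM in treated mice, and its groups overlapped (0.42 ± 0.46). Ppt1, which removes fatty acids from proteins, had a fold change of 0.21 ± 0.21.

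Of the 8 membrane genes, Lamp1, Lamp2, Scarb2 and Npc1 were higher in each treated mouse than in any vehicle mouse. Lamp1 was at 956, 727 and 859 CPM in vehicle macrophages and 1189, 1214 and 1174 CPM in treated ones (0.49 ± 0.22, edgeR adjusted p = 0.522). Cd63 was at 754, 466 and 412 CPM in vehicle mice and 1068, 1062 and 645 CPM in treated mice (0.77 ± 0.33, edgeR adjusted p = 0.504). Treated 3 fell inside the vehicle range for Cd63. Mcoln1, the calcium channel TRPML1, was at 21.4 CPM in vehicle 1 and 6.96 to 7.88 CPM in the other mice. Npc2, a cholesterol carrier, was at 1236, 944 and 835 CPM in vehicle mice and 1322, 1441 and 797 CPM in treated mice. Grn, progranulin, was at 1028, 525 and 536 CPM in vehicle mice and 823, 881 and 838 CPM in treated mice. The groups overlapped for both.

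Summed over the 8 lipid genes, macrophages held 3034 ± 738 CPM in vehicle mice (SD, n = 3) and 6133 ± 490 CPM in treated mice, a ratio of 2.02. Without Psap the sums were 1115 ± 119 and 1903 ± 137 CPM, a ratio of 1.71. The sugar sum was 942 ± 81 and 1263 ± 89 CPM, a ratio of 1.34, and the protein sum 894 ± 326 and 1204 ± 381 CPM, a ratio of 1.35. The lipid and sugar sums did not overlap between groups. The protein sum overlapped with Lgmn and did not without it (208 ± 16.8 and 291 ± 18.2 CPM, ratio 1.40). The difference between roles was not tested. The protein group held 3 genes and no cathepsin, so its sum does not stand for lysosomal protein breakdown as a whole.

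**Figure D3:**
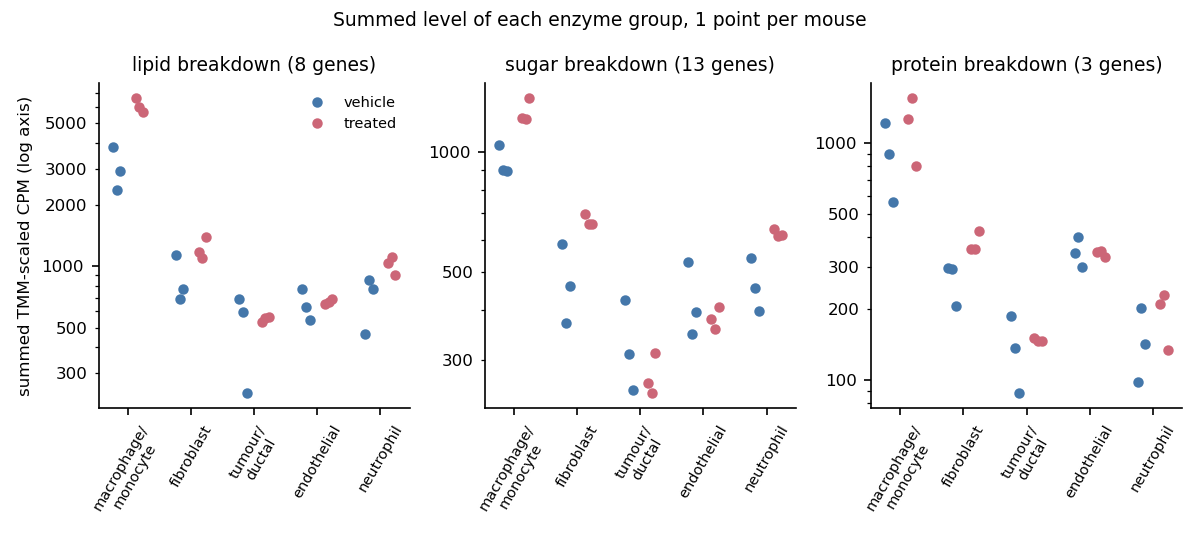
Points are the summed TMM-scaled CPM (log axis) of the lipid, sugar and protein genes in each mouse, blue for vehicle and red for treated, in 5 classes. In macrophages the treated lipid sums, from 5709 to 6670 CPM, lie above the vehicle sums, from 2358 to 3822 CPM.

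The macrophage class was not made of the same clusters in each group. Cluster 3 held most of it in vehicle 1 and 2 (53.7% and 59.3%), cluster 11 the largest share in vehicle 3 (41.5%), cluster 13 in treated 1 and 2 (37.8% and 53.4%) and cluster 4 in treated 3 (53.6%). Markers of tumour epithelium in the class ran from 100 to 497 CPM across vehicle mice and from 53.6 to 63.5 CPM across treated mice, with 10 of 10 markers below 0 in fold change. Of 9 genes of a lipid-handling macrophage state, 9 had a fold change above 0, where 50.6% of all genes did, and their median was 0.80. At an unadjusted p under 0.05, 6 of the 9 were higher, where 4.43% of all genes were. Of 8 monocyte genes 7 were below 0, and of 8 genes of the resident C1q state 4 were. The part of cluster makeup, state or free RNA in the members' values was not tested. In cells with at least 500 genes the fold changes were 1.98 for Lipa and 1.15 for Psap.

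The other 82 lysosome genes, a list of cathepsins, proton pump subunits, further hydrolases, membrane and sorting proteins and factors, had a median of 0.37 in macrophages. Of 81 measured, 0 passed edgeR's adjustment and 63 were above 0 (50.6% of all genes were). At an unadjusted p under 0.05, 17 were higher and 0 lower, where 4.43% and 5.33% of all genes were. The 2 with the most UMIs were Ctss, cathepsin S (0.13), and Ctsd, cathepsin D. Ctsd was at 1270, 747 and 1129 CPM in vehicle mice and 3879, 2291 and 2997 CPM in treated mice (1.54, edgeR adjusted p = 0.176). Its groups did not overlap.

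In fibroblasts, 26 of 34 members had a fold change above 0 (50.2% of all genes), and the median was 0.37 against 0.00 over all genes. At an unadjusted p under 0.05, 11 were higher and 2 lower, where 7.7% and 8.53% of all genes were. Groups did not overlap for 13 higher and 2 lower members, against 12.6% and 11.7% of genes. Scaled to class totals, 21 were higher and 2 lower, against 19.9% and 6.14%. Of the 11 higher members 8 belonged to sugar breakdown, whose median was 0.73. The medians were 0.37 for lipid breakdown, 0.50 for the protein group, -0.00 for the membrane and -0.11 for the other soluble proteins.

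Arsb, which removes sulfate from dermatan and chondroitin sulfate, was at 17.0, 10.2 and 12.4 CPM in vehicle fibroblasts and 32.1, 30.5 and 37.8 CPM in treated ones. Treated values lay well above vehicle values. The log2 fold change was 1.42 ± 0.23, with an adjusted p of 0.164 by edgeR and 0.000778 by DESeq2. Naglu was at 26.6, 26.6 and 25.8 CPM in vehicle mice and 49.7, 41.9 and 45.9 CPM in treated mice (0.80 ± 0.15, adjusted p = 0.164 by edgeR and 0.0224 by DESeq2). The vehicle values of Naglu were nearly equal, and the groups were apart.

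Man2b1 was at 68.0, 40.9 and 59.7 CPM in vehicle fibroblasts and 92.4, 100.3 and 127 CPM in treated ones (0.94 ± 0.24, adjusted p = 0.194 by edgeR and 0.0442 by DESeq2). Tpp1 was at 22.3, 32.8 and 39.1 CPM in vehicle mice and 53, 54.1 and 59.6 CPM in treated mice (0.79 ± 0.22, adjusted p = 0.205 by edgeR and 0.0902 by DESeq2). Both were higher in every treated mouse. The other higher members at an unadjusted p under 0.05 were Glb1, Manba, Sgsh, Gaa, Neu1, Lamp2 and Cln3, with fold changes from 0.48 to 1.46.

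The 2 lower members in fibroblasts were Cd63 and Npc2. Cd63 was at 2066, 1619 and 1762 CPM in vehicle mice and 1254, 1267 and 1175 CPM in treated mice (-0.56 ± 0.19, edgeR adjusted p = 0.249). Npc2 was at 1341, 890 and 991 CPM in vehicle mice and 699, 714 and 759 CPM in treated mice (-0.57 ± 0.22, edgeR adjusted p = 0.283). Neither gene's groups overlapped. The lipid gene Lipa was at 38.3, 72.4 and 44.5 CPM in vehicle fibroblasts and 72.3, 69.8 and 37.6 CPM in treated ones (0.18 ± 0.34), with overlap.

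The sugar sum in fibroblasts was 473 ± 107 CPM in vehicle and 671 ± 22 CPM in treated mice (ratio 1.42), and the protein sum 266 ± 53 and 380 ± 38 CPM (ratio 1.43). Neither overlapped, while the lipid sum did (866 ± 239 and 1220 ± 148 CPM, ratio 1.41), and without Psap that sum did not overlap either. Clusters 8, 29 and 9 led the class in vehicle 1 to 3, and cluster 8 in all treated mice. Macrophage markers in the fibroblast sums ran from 175 to 551 CPM across vehicle mice and from 140 to 286 CPM across treated mice. Of the 9 markers measured, 8 had a fold change below 0 (50.2% of all genes were above 0). Their part in the members' values was not tested. Of the 10 members higher at an unadjusted p under 0.05 in macrophages and the 11 in fibroblasts, 4 were shared (40% and 36.4%): Man2b1, Naglu, Neu1 and Tpp1. Both classes came from the same mice.

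**Figure D4:**
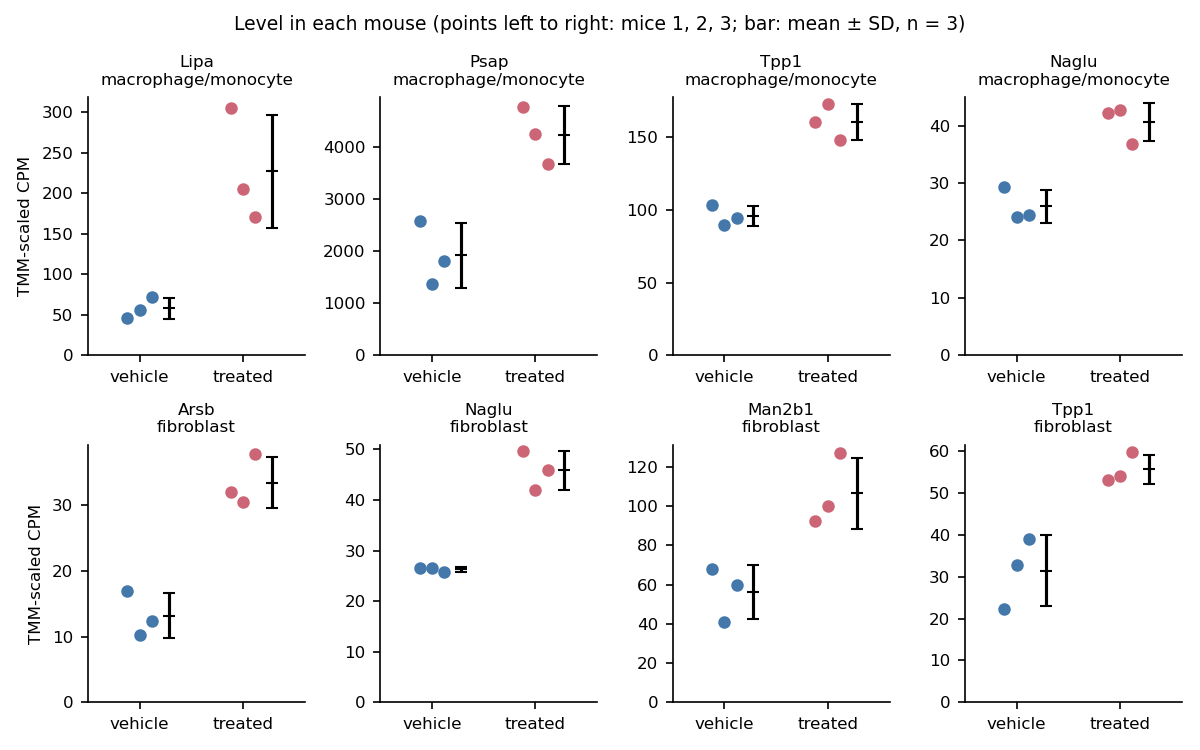
Points are TMM-scaled CPM in each mouse, with the mean and SD (n = 3) beside them, for Lipa, Psap, Tpp1 and Naglu in macrophages and Arsb, Naglu, Man2b1 and Tpp1 in fibroblasts. In all 8 panels the treated points lie above the vehicle points.

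Of the other lysosome genes in fibroblasts, 78 were measured and 0 passed edgeR's adjustment, with a median of 0.22. Of these, 15 were higher and 4 lower at an unadjusted p under 0.05, where 7.7% and 8.53% of all genes were. Ctsl, cathepsin L, had the most UMIs, at 540, 617 and 847 CPM in vehicle mice and 1320, 1267 and 1107 CPM in treated mice (0.88, edgeR adjusted p = 0.2). Its groups were apart, whereas those of Ctsb, cathepsin B, overlapped (0.39).

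In tumour and ductal epithelium, 14 of 34 members had a fold change above 0 (45% of all genes), and the median was -0.03 against -0.08 over all genes. At an unadjusted p under 0.05, 0 were higher and 2 lower, where 4.9% and 6.89% of all genes were. All treated mice lay above all vehicle mice for 1 member and below for 3, against 10.2% and 9.99% of genes. Scaled to class totals these counts were 3 and 1, against 20.8% and 3.53%, and the median of all genes moved from -0.08 to 0.23. The role medians were 0.26 for lipid breakdown, -0.42 for sugar breakdown, -0.01 for the protein group, -0.17 for the membrane and -0.02 for the other soluble proteins. The naming rule had left out sub-clusters of these tumour clusters, which reduced treated 1 from 1800 to 817 cells, treated 2 from 2634 to 1030 and treated 3 from 922 to 600, against 2700 to 2611 in vehicle 3 and 3876 to 3506 in vehicle 2. With those cells put back, an alternative chosen after seeing the data, 13 of 34 members were above 0, 0 passed, and the lipid, sugar and membrane medians were 0.12, -0.42 and -0.38.

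Gusb was at 82.5, 52.5 and 79.0 CPM in vehicle tumour cells and 34.1, 34.2 and 41.2 CPM in treated ones. All treated mice lay below all vehicle mice. The log2 fold change was -0.97 ± 0.26 (adjusted p = 0.406 by edgeR and 0.069 by DESeq2). Neu1 was at 55.4, 43.0 and 56.1 CPM in vehicle mice and 22.8, 17.0 and 40.0 CPM in treated mice (-0.95 ± 0.35, edgeR adjusted p = 0.406). Its groups were apart, with treated 3 close to vehicle 2.

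Sgsh, heparan sulfamidase, was low at 6.63, 4.25 and 1.90 CPM in vehicle mice and 1.66, 1.47 and 2.19 CPM in treated mice (-1.26 ± 0.56). Arsb was at 7.53, 3.99 and 3.12 CPM in vehicle mice and 9.69, 10.6 and 6.18 CPM in treated mice (0.86 ± 0.45). Both overlapped between groups by 1 mouse. Fuca1, the sugar gene with the most UMIs in the class, was at 50.2, 69.4 and 39.8 CPM in vehicle mice and 76.1, 63.9 and 73.1 CPM in treated mice (0.42 ± 0.27).

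The lipid genes with the most UMIs overlapped between groups in tumour cells. Psap was at 285, 288 and 127 CPM in vehicle mice and 214, 219 and 323 CPM in treated mice (0.11 ± 0.38). Asah1 was at 159, 122 and 69.1 CPM in vehicle mice and 94.5, 91.7 and 94.9 CPM in treated mice (-0.32 ± 0.33). Vehicle mice were spread widely for both. Lipa ran from 4.87 CPM in vehicle 3 to 121 CPM in vehicle 1, and from 29.2 to 99.5 CPM in treated mice (0.19 ± 1.00).

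Tpp1 was the 1 member with all treated mice higher in tumour cells, at 46.3, 53.8 and 38.2 CPM in vehicle mice and 57.9, 59.4 and 60.9 CPM in treated mice (0.37 ± 0.22, edgeR adjusted p = 0.531). Lgmn was at 112, 55.2 and 25.5 CPM in vehicle mice and 68.8, 63.9 and 58.2 CPM in treated mice (-0.01 ± 0.50). The treated values of Lgmn lay within the vehicle range. Cd63 was at 821, 800 and 543 CPM in vehicle mice and 774, 737 and 504 CPM in treated mice (-0.10 ± 0.29). Lamp1 was at 390, 367 and 418 CPM in vehicle mice and 302, 297 and 327 CPM in treated mice (-0.34 ± 0.20, edgeR adjusted p = 0.532), with no overlap. Npc2 was at 428, 454 and 335 CPM in vehicle mice and 376, 383 and 459 CPM in treated mice, with a fold change of -0.00 ± 0.23. Grn was at 107, 120 and 48.2 CPM in vehicle mice and 81.4, 75.8 and 111 CPM in treated mice (-0.04 ± 0.38). Both overlapped.

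The tumour values depended on single vehicle mice. The number of members above 0 was 22 without vehicle 1 and 8 without vehicle 3, and the sugar median was 0.27 without vehicle 1. The class was led by different clusters in each vehicle mouse (87.4%, 35.0% and 96.4% of the class in clusters 12, 21 and 26), while cluster 10 led in treated 1 and 2 and cluster 31 in treated 3. Macrophage markers in the tumour sums ran from 108 to 125 CPM across vehicle mice and from 25.0 to 104 CPM across treated mice. All 10 markers measured had a fold change below 0 (45% of all genes were above 0). Their part in the members' values was not tested. Of 80 other lysosome genes measured in tumour cells, 0 passed edgeR's adjustment, with a median of -0.11. Among them 0 were higher and 8 lower at an unadjusted p under 0.05, where 4.9% and 6.89% of all genes were. The 2 with the most UMIs were Ctsl (-0.85, edgeR adjusted p = 0.629) and Atp6v0c, a proton pump subunit (-0.94, edgeR adjusted p = 0.406).

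In endothelium, 19 of 33 measured members were above 0 (52% of all genes), with a median of 0.12 against 0.03. Of the members 2 were higher and 2 lower at an unadjusted p under 0.05, where 7.87% and 11.9% of genes were, and groups did not overlap for 4 higher and 3 lower, against 14% and 12.9%. Gusb was at 82.2, 48.9 and 65.2 CPM in vehicle mice and 22.8, 31.2 and 47.7 CPM in treated mice (-0.82 ± 0.30, edgeR adjusted p = 0.168). Npc2 was at 246, 209 and 207 CPM in vehicle mice and 176, 158 and 149 CPM in treated mice (-0.43 ± 0.19, edgeR adjusted p = 0.251). Both were lower in each treated mouse.

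Ids, iduronate 2-sulfatase, was at 34.2, 18.3 and 16.6 CPM in vehicle endothelium and 31.1, 26.1 and 35.0 CPM in treated endothelium (0.72 ± 0.26, edgeR adjusted p = 0.173). Sgsh was at 13.7, 12.2 and 8.03 CPM in vehicle mice and 21.1, 14.0 and 19.1 CPM in treated mice (0.79 ± 0.32, edgeR adjusted p = 0.2). Sgsh had groups that did not overlap, but vehicle 1 (13.7 CPM) lay close to treated 2 (14.0 CPM). Ids overlapped through vehicle 1. That mouse had only 47 endothelial cells with 160317 UMIs, so its values for both genes rest on few UMIs. Idua was too low to test. Among 72 other lysosome genes measured, 0 passed and the median was 0.01. At an unadjusted p under 0.05, 6 were higher and 8 lower, where 7.87% and 11.9% of all genes were. Those with the most UMIs were Ctsb (-0.74) and Ctsl (0.01).

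In neutrophils, 27 of 31 measured members were above 0 (46.1% of all genes), with a median of 0.22 against -0.06. Without vehicle 1 the count was 18 of 26, and in cells thinned to 1 depth it was 15 of 23. Of these members 1 was higher and 0 lower at an unadjusted p under 0.05, where 0.771% of genes were higher and 4.85% lower (5.62% in all). Groups did not overlap for 4 higher members and 1 lower, against 5.46% and 5.88% of genes. DESeq2 called 0 members and 0.0392% of genes. Lipa was at 12.8, 42.1 and 37.6 CPM in vehicle mice and 89.6, 125 and 46.6 CPM in treated mice (1.48 ± 0.56, edgeR adjusted p = 0.789). Asah1 was at 39.2, 53.6 and 60.4 CPM in vehicle mice and 90.9, 85.7 and 80.4 CPM in treated mice (0.74 ± 0.37). Neither gene's groups overlapped. Man2b1 was at 150, 249 and 153 CPM in vehicle mice and 321, 317 and 316 CPM in treated mice (0.79 ± 0.43), also apart. Galns, a sulfatase of keratan sulfate, was at 37.9, 5.74 and 7.03 CPM in vehicle mice and 1.30, 3.98 and 8.68 CPM in treated mice (-1.66 ± 0.89), a difference carried by vehicle 1. The class was uneven: neutrophil markers summed to 14609 CPM in vehicle 2 and 279530 CPM in vehicle 1, and macrophage markers to 751 CPM and 7409 CPM in the same mice. In treated mice neutrophil markers ran from 26604 to 124936 CPM. Their part in the members' values was not tested. Among 67 other lysosome genes measured, 0 passed, with a median of 0.04, and Atp6v0c (-0.31) and Ctsd (0.16) had the most UMIs.

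In T and NK cells 14 members were measured and 7 were above 0 (50.7% of all genes), with a median of -0.02 against 0.01. At an unadjusted p under 0.05, 0 were higher and 1 lower, where 1.49% and 2.36% of genes were. Groups did not overlap for 0 higher and 2 lower members, against 6.18% and 4.42% of genes. Vehicle 1 had only 42 cells and 70789 UMIs in this class, so its values rest on few UMIs. A T and NK sub-cluster led by haemoglobin genes held 37 cells of that mouse. Cd63 was at 136, 84.4 and 40.0 CPM in vehicle mice and 20.2, 15.6 and 52.6 CPM in treated mice (-1.05 ± 0.46, edgeR adjusted p = 0.999). Lamp2 was at 84.8, 96.7 and 59.9 CPM in vehicle mice and 28.8, 49.3 and 62.1 CPM in treated mice (-0.69 ± 0.34). Each overlapped through treated 3. Gm2a was at 153, 130 and 120 CPM in vehicle mice and 124, 215 and 224 CPM in treated mice (0.55 ± 0.31). Lipa was at 17.0, 42.2 and 51.4 CPM in vehicle mice and 31.7, 23.4 and 30.7 CPM in treated mice (-0.57 ± 0.36). Both overlapped. Of 39 other lysosome genes measured there, 0 passed, and Laptm5 (0.11) and Atp6v1f (-0.00) had the most UMIs.

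In B cells only 7 members were measured, 3 of them above 0 (48.9% of all genes), with 0 higher and 0 lower at an unadjusted p under 0.05, where 0.867% and 1.79% of genes were (2.65% in all). The groups were apart for 0 higher and 1 lower member, against 5.41% of genes in each direction. Npc2 was at 178, 166 and 199.6 CPM in vehicle mice and 61.9, 62.7 and 146 CPM in treated mice (-0.69 ± 0.35, edgeR adjusted p = 0.995), with no overlap. Gm2a (0.41), Fuca1 (0.31) and Laptm4a (-0.24) overlapped between groups. Treated 1 and treated 2 had 25 and 20 B cells with 88890 and 74598 UMIs, so their values, those of Npc2 included, rest on few UMIs. Laptm4a had 0 UMIs in treated 2. Of 18 other lysosome genes measured there, 0 passed, and Laptm5 (0.29) and Ctss (-0.14) had the most UMIs.

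Whether the response of a member differed between macrophages and another class was tested with a class by treatment term that kept the mouse in the model. In edgeR 0 of 34 members passed against tumour cells, fibroblasts, endothelium or neutrophils. Over all genes, 0.142% passed against endothelium and 0% against the other 3. At an unadjusted p under 0.05 there were 7 members against tumour cells (12% of genes), 8 against fibroblasts (10.3%), 10 against endothelium (12.6%) and 1 against neutrophils (5.72%).

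DESeq2 called 3 members against tumour cells, where it called 2.07% of all genes. The response in tumour cells minus that in macrophages was -1.46 for Neu1 (adjusted p = 0.012), -1.25 for Gm2a (0.0195) and -0.83 for Lamp1 (0.0139). For each, the fold change was below 0 in tumour cells and above 0 in macrophages. Against fibroblasts (0.681% of all genes) it called Lipa (-1.75, adjusted p = 0.00334) and Cd63 (-1.32, adjusted p = 0.00334). Against endothelium (0.916%) it called Lipa (-1.57, 0.0185), Psap (-1.21, 0.00469) and Fuca1 (-0.85, 0.0289), and against neutrophils none (0.107%). Many members, Arsb, Naglu and Glb1 among them, had no adjusted p from DESeq2 against endothelium and could not be called there. In edgeR the adjusted p of the 8 differences that DESeq2 called lay between 0.115 and 0.248. Without treated 3, edgeR called 4 of 34 members against endothelium (Lipa, Psap, Gusb and Arsb), and 355 of all 11893 genes (2.98%), up from 17 with all mice.

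The 9 members whose promoter window held CACGTG had a median fold change of 0.42 in macrophages. Of these 9, 6 were above 0, as were 30 of all 34 members and 50.6% of all genes. Among the 9, 1 (Naglu) was higher at an unadjusted p under 0.05, as were 10 of all members and 4.43% of all genes. A link between the letters and the values was not tested. Lipa, Psap and Tpp1 had no CACGTG in the window searched.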

How the data were processed

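The authors deposited UMI counts that were not normalized, 1 matrix a mouse. Per the submitters' processing notes they were made with Cell Ranger 5.0.1 on mm10. Cells with at least 500 UMIs, 250 genes and at most 20% mitochondrial UMIs were kept (39928). Scrublet called 0 to 31 barcodes a library, so the highest scores at 0.8% per 1000 barcodes were removed as doublets (2910). Without the members, scanpy 1.11.5 (2000 variable genes, 30 components, 15 neighbours, resolution 1) gave 34 clusters and 219 sub-clusters, named from 19 marker sets. The naming rules, 1 sub-cluster left unnamed by hand included, were settled after clusters were seen and before genes were tested. Counts summed per mouse and class were tested in edgeR 4.0.16 (TMM, filterByExpr, robust quasi-likelihood, two-sided, Benjamini-Hochberg at 0.05), with DESeq2 1.42.0 as an alternative. The per-mouse values were put on the TMM scale after both scales had been seen. Replicates are separate mice.

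Members and lists were chosen with earlier results of these data known. Values per mouse are given for members past the threshold in a class or, with fewer than 3, the 4 of smallest p, and in macrophages and tumour cells for the 2 of highest mean per role. Others named were chosen after their values were seen. The fits were tested on simulated data.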

Additional observations from a re-analysis of the deposited data

Results flagged for a closer look

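Of the 34 members, Neu1, Lamp1 and Glb1 had groups that were apart in opposite directions in 2 classes. Within 1 class, groups were apart in either direction for 10.6% of all genes in T and NK cells to 27% in endothelium. How many of all genes were apart in opposite directions in 2 classes was not counted. Whether the members differ from other genes in this is therefore not known. Neu1 was higher in treated macrophages (log2 fold change 0.45) and lower in treated tumour cells (-0.95). The tested difference was -1.49 ± 0.31 (SE), with an unadjusted p of 0.00106 and an adjusted p of 0.196 by edgeR. Lamp1 was higher in treated macrophages (0.49) and lower in treated tumour cells (-0.34), and the difference was -0.85 ± 0.24 (adjusted p = 0.248 by edgeR). Neu1 and Lamp1 were also lower in treated T and NK cells (-0.22 and -0.17), a difference that was not tested. The gaps there were narrow. Neu1 was at 36.9 CPM in vehicle 2 and 36.3 CPM in treated 2. Lamp1 was at 136 CPM in vehicle 1, which had only 42 cells in this class, and 132 CPM in treated 2. Glb1 was higher in treated fibroblasts (0.48) and lower in treated endothelium (-0.41), and this difference was not tested either. Groups of 3 mice are too small for the check for outlying samples.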

How the results depend on the processing

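With 3 mice a group, edgeR recovered 5% of 2-fold changes in simulated macrophage and fibroblast sums and 0% in tumour sums, and most differences of the members were smaller. Within classes no member was called lower under any alternative run, or higher except as follows. In macrophages DESeq2 called 3 higher (and 91 of all 11524 genes). There, edgeR without a filter on low counts called 1 (and 25 higher and 28 lower of all 20633 genes). In fibroblasts DESeq2 called 3 higher (and 170 of all 12468 genes). Between classes DESeq2 called 3, 2 and 3 against tumour cells, fibroblasts and endothelium (2.07%, 0.681% and 0.916% of all genes), and edgeR 0 to 4 against endothelium with a mouse left out (4 without treated 3, where 2.98% of all genes passed).

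Scaling to class totals, taken here over the genes tested, moved the median of all genes from -0.08 to 0.23 in tumour cells. The same scaling moved it from -0.06 to 0.11 in neutrophils, 0.00 to 0.15 in fibroblasts and 0.03 to 0.12 in endothelium. The role medians it moved were lipid in macrophages (0.54), sugar and membrane in neutrophils (0.49 and 0.26), lipid, protein and membrane in fibroblasts (0.55, 0.66 and 0.17) and sugar and membrane in endothelium (0.19 and 0.23). With Glb1 and Neu1 counted as lipid genes the fibroblast lipid median was 0.44, and with doublets kept the endothelial membrane median was 0.0624. In cells thinned to 1 depth, 15 of 23 neutrophil and 11 of 26 endothelial members were above 0, and the endothelial sugar and protein medians were -0.14 and -0.20. Without the filter on low counts 20 of 34 members were above 0 in B cells and 21 of 34 in T and NK cells, whose sugar median was 0.37. With treated 1 and 2 summed 11 of 22 were above 0 in T and NK cells.

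With 1 mouse left out, the members above 0 ran from 8 to 22 of 34 in tumour cells, from 18 of 26 to 28 of 34 in neutrophils, from 1 of 3 to 7 of 13 in B cells and from 5 of 15 to 11 of 19 in T and NK cells. Role medians ran, in macrophages, from 0.52 to 0.66 (lipid), 0.18 to 0.48 (sugar) and 0.22 to 0.81 (protein). In tumour cells they ran from -0.77 to 0.27 (sugar) and -0.19 to 0.36 (protein), and in neutrophils from -0.11 to 0.44 (sugar) and -0.0621 to 0.26 (membrane). In fibroblasts they ran from 0.29 to 0.55 (lipid), 0.50 to 0.83 (sugar) and 0.35 to 0.64 (protein), in endothelium from -0.19 to 0.13 (protein) and 0.0482 to 0.22 (membrane), and in T and NK cells from -0.47 to 0.67 (lipid).

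Signs near 0 in tumour cells turned. Npc2 was at 0.013 under DESeq2, 0.29 on class totals, 0.00503 without ribosomal and mitochondrial genes, 0.050 with treated 1 and 2 summed, 0.011 at 10% mitochondrial UMIs, 0.00665 for genes at 10% or more of the highest class, 0.0021 when thinned and 0.082 with the sub-clusters that naming had excluded. Lgmn was at 0.0045 under DESeq2, 0.25 on class totals, 0.029 at 10% mitochondrial UMIs and 0.021 when thinned. Grn was at 0.22 and Cd63 at 0.18 on class totals, Grn at 0.046 with treated 1 and 2 summed, and Psap at -0.039 with the excluded sub-clusters, an alternative chosen after seeing the data. With 1 mouse left out these genes ran from -0.12 to 0.10 (Npc2), -0.39 to 0.65 (Lgmn), -0.35 to 0.21 (Grn), -0.27 to 0.0587 (Cd63) and -0.19 to 0.30 (Psap), and Laptm4a in B cells from -0.42 to 0.0065. The cause of these changes was not tested.

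The labels' replicate numbers name separate mice. Same-numbered mice deviated together at a correlation above 0.1 for all 3 numbers in neutrophils (0.11, 0.21 and 0.16) and in no other class, so the numbers were not taken as pairs. With the replicate number as a block, edgeR called 0 members in each of the 7 classes, and over all genes 2 higher and 0 lower in macrophages, 10 and 58 in endothelium and 2 and 8 in T and NK cells. Under the block the tumour values of Lgmn, Npc2 and Grn were 0.23, 0.0051 and 0.031.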

Other observations

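Classes with fewer than 20 cells in at least 1 mouse were not tested, and some held members at high levels. On the class-total scale, Gm2a in conventional dendritic cells of type 2 was at 699, 866 and 1019 CPM in the 3 vehicle mice and at 1617 and 1504 CPM in treated 2 and 3. Psap was at 739, 858 and 969 CPM there in vehicle mice and at 1144 and 1347 CPM in those treated mice. For both genes the 2 treated mice lay above the vehicle mice. The class had 31, 156 and 202 cells in vehicle mice, but only 25 and 21 in treated 2 and 3. Treated 1 had 11 and was left out. The share of all genes apart in this way was not counted. Npc2 was at 367, 476 and 456 CPM in vehicle mice and 481 and 302 CPM in treated mice, with overlap. In pericytes and smooth muscle, Cd63 was at 944 and 1012 CPM in vehicle 2 and 3 and 977, 724 and 1092 CPM in the treated mice, with overlap.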
